A study of Mus musculus with 30 samples.

Results

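The hypothalamus of newborn female mice was compared between 6 h and 3 h after an injection of oil alone. The members are the 3 arrays titled for oil at 6 h and the 3 titled for oil at 3 h, which are 6 of the 30 arrays of the series. In the whole study, C57BL/6J females received on the day of birth either estradiol benzoate (EB, an esterified estrogen, 7.5 μg) in peanut oil or the same 20 μl of oil, and tissue was taken at 1, 3, 6, 12 or 24 h, with 3 arrays in each of 10 groups. RNA of the whole hypothalamus was hybridised to each array, and the 3 arrays of a group are labelled as biological replicates. The array is an Affymetrix design that reads a transcript through sets of short probes (probe sets). The 6 mice of the comparison received no hormone, so the comparison describes what changes between the earlier and the later time in vehicle controls.

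All mice were kept under 14 h of light, with lights on at 05.00 h. Neither the clock hour of injection nor the litters are stated in the labels or methods. How the arrays were grouped for extraction, labelling or scanning was not stated either. The hours since the injection, the age of the pup, the time of day and any such batch that followed the time point therefore cannot be told apart. RNA of a whole tissue also cannot tell fewer cells of a type from less RNA per cell. With 3 arrays against 3, an exact permutation test cannot give a p below 0.1, and the number of arrays limits the precision.

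As background, the newborn hypothalamus holds neurons that have left the cell cycle, dividing glial progenitors, and tanycytes, the radial glia that line the third ventricle. In adults, many of its genes follow the day through the circadian clock, in which activators bind E-boxes in the promoters of Per, Cry and Dbp genes. Handling and injection can induce immediate early genes and glucocorticoids, and milk intake changes nutrient signals, so gene lists for each of these were examined.

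The values are MAS5 signal intensities, and each array was scaled here to the mean of the 30 array medians, 41.3. Before scaling, the medians were 29.6, 41.9 and 38.4 in the oil 3 h arrays and lay from 36.5 to 36.9 in the oil 6 h arrays. No 2 arrays held identical values, and log2 signals correlated at 0.977 to 0.982 within oil 3 h, 0.978 to 0.986 within oil 6 h, and 0.971 to 0.977 between the times (a description across probe sets). The scaled 18S ribosomal RNA control, which measures ribosomal RNA carried into the labelled sample, differed between the times. Its 3′ probe set read 857 ± 109 at oil 3 h and 2146 ± 42.1 at oil 6 h (SD, n = 3; two-sided exact permutation test, p = 0.1), with no overlap. The 3′ over 5′ signal of Actb, a measure of RNA integrity, was 1.34 and 1.35. The Gapdh ratio was 0.691 and 0.668. The part of the 18S difference in any result below was not tested. Of 37 listed hypothalamic transcription factor genes, 34 were above the filter on dim probe sets, while of 9 listed anterior pituitary markers only Pomc, which the hypothalamus also expresses, was above it. The filter did not set neighbouring regions apart, with 10 of 10 thalamic, 11 of 12 striatal and 9 of 11 cortical and hippocampal markers above it.

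Between 3 h and 6 h after oil, 709 of 27023 tested probe sets rose, which is 2.62% of those tested, and 1042 fell, which is 3.86% (adjusted p under 0.05 from limma with Benjamini-Hochberg adjustment). They belonged to 533 genes with a higher and 759 genes with a lower probe set, and 27 genes had both. Most changes were small. The median change was 0.46 on the log2 scale among those that rose, and those that fell had a median of -0.50. By limma only 26 of the first and 79 of the second reached 2-fold. The oil 6 h arrays lay all above or all below the oil 3 h arrays in 1704 of the 1751, while over all tested probe sets they lay all above in 3054 and all below in 3321. The called probe sets were brighter than most, with median signals of 246 and 288 against 125 over all tested. On the deposited signals without scaling, limma called only 44 higher and 120 lower, so that 73.2% of the calls were lower against 59.5% with scaling. Leaving out 1 array moved the number of rises by over 1.5 times without oil 3 h replicate 2 (425) and oil 6 h replicates 1, 2 and 3 (392, 455 and 384), and the number of falls without oil 3 h replicates 1 and 3 (633 and 557) and oil 6 h replicates 2 and 3 (596 and 628).

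**Figure D1:**
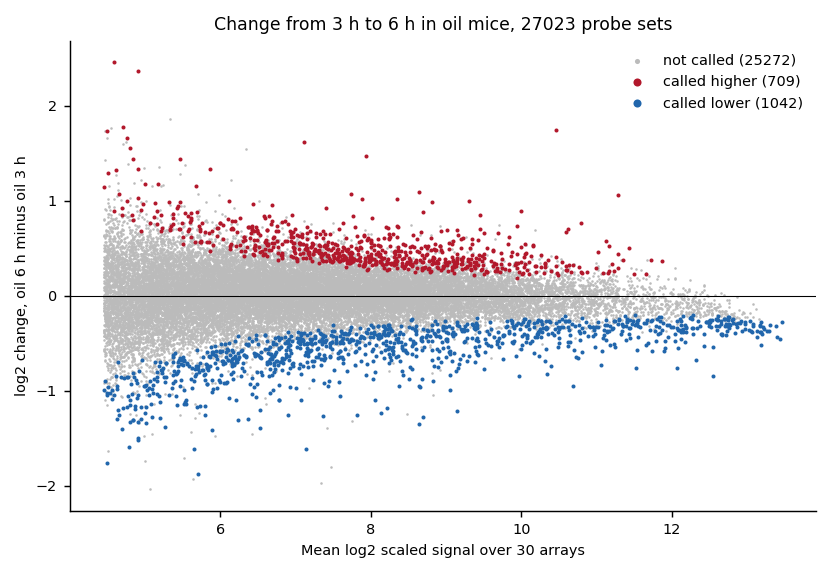
Change of each of 27023 probe sets from oil 3 h to oil 6 h (y axis, log2 of scaled signal) against its mean log2 signal over 30 arrays (x axis), with the 709 called higher in red and the 1042 called lower in blue. Calls occur at all signal levels, most lie within 1 log2 unit of 0, and above a mean log2 signal of 12 there are 111 calls lower and 0 higher. The number tested at that brightness was not counted. Of the bright genes called lower, Actb, Tubb5 and Eef1a1 did not pass after quantile normalization. How many of the 111 pass under that setting was not counted.

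The 15 genes named for the largest rises were led by Prdm11, of a family of zinc finger regulators, whose probe set 1456186_at read 4.49, 6.35 and 11.3 at oil 3 h and 39.3, 40.4 and 33.6 at oil 6 h. Its log2 change was 2.46 (standard error 0.60, adjusted p = 0.0124 from limma). The 3 h values of this probe set are near the dim end of the array, and its brighter probe set changed by 0.06. Rpl27a, a protein of the large ribosomal subunit, rested on firmer signals. Its single tested probe set 1437729_at read 188, 145 and 178 at 3 h and 602, 369 and 469 at 6 h, so the groups lay well apart. The ratio of the means was 2.82, and the log2 change 1.47 had a standard error of 0.14 (adjusted p = 1.58e-07 from limma). Tubb2a, a neuronal β-tubulin, read 90.9, 67.3 and 87.4 at 3 h and 413, 184 and 202 at 6 h on 1427838_at (log2 change 1.61, standard error 0.20, adjusted p = 1e-05 from limma). The other Tubb2a probe set, 1427347_s_at, was far brighter and fell, from 8021, 7172 and 7478 to 6765, 5924 and 6695 (log2 change -0.23, adjusted p = 0.0494 from limma). The direction of Tubb2a therefore depended on the probe set, and Tubb2a-ps2, a pseudogene of near-identical sequence, gave 1.32.

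Rps10, of the small ribosomal subunit, showed the same disagreement. One probe set rose from 390.1, 696 and 959 to 1423, 3146 and 2163 (log2 change 1.74, adjusted p = 0.00266 from limma), while another fell by 0.26 and 3 did not pass. The rising one, 1439374_x_at, carries the suffix that marks probes shared with other transcripts. Ccnd2, cyclin D2 of the G1 phase, was the opposite case: 6 of its 6 tested probe sets rose, by 0.88 to 1.09. The named one read 334, 293 and 299 at 3 h and 471, 1094 and 545 at 6 h (standard error 0.19, adjusted p = 0.000946 from limma). As the choice of named genes required, all 3 arrays at 6 h were above all 3 at 3 h, and oil 6 h replicate 2 stood highest. That array also stood apart in marker genes of cortex and of vessels, as given with the markers.

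The growth factor gene Fgf9 read 38.5, 28.9 and 22.5 at 3 h and 65.8, 74.3 and 81.2 at 6 h on one probe set (log2 change 1.33), and changed by 0.07 on the other. Smim27, a small membrane protein gene, read 29.6, 23.5 and 14.0 and then 52.4, 60.7 and 61.2, a change of 1.44. Both moved without overlap between the groups, which the choice of named genes required. The other named genes that rose were Gm4802 (1.77), Tcn2, the vitamin B12 carrier transcobalamin (1.56), Hdgf, a heparin-binding growth factor (1.44), Rhpn2 (1.17), Lmln, a metallopeptidase (1.16), A330048O09Rik (1.15) and Satb1, a chromatin organiser (1.07). For Hdgf and Satb1 the brightest probe sets did not pass, at 0.06 and 0.32, and the brighter of the 2 Lmln probe sets was at -0.28, with the 6 h arrays all lower. The brightest Tcn2 probe set rose by 0.82. When each of the 6 oil arrays was left out in turn, Rpl27a, Tubb2a, Rps10, Ccnd2, Hdgf, Smim27, Fgf9 and Rhpn2 passed every time. The calls of the others were lost without oil 3 h replicate 1 for Prdm11, 3 h replicate 1 and 6 h replicates 1 and 2 for Gm4802, 3 h replicate 2 and 6 h replicates 2 and 3 for Tcn2, 3 h replicate 3 and 6 h replicate 1 for Tubb2a-ps2, 3 h replicate 1 and 6 h replicate 1 for Lmln, 3 h replicates 1 and 3 and 6 h replicate 3 for A330048O09Rik and 3 h replicates 1, 2 and 3 and 6 h replicates 1, 2 and 3 for Satb1.

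Promoters were searched for 3 motifs of clock and cyclic AMP control, on both strands: the E-box CACGTG, the D-box TTATGTAA and the cyclic AMP response element TGACGTCA. The window was 300 bases of RefSeq promoter on GRCm38.p6, 250 before and 50 after a start site. The response element was in at least 1 promoter of 4.39% of 433 genes that rose and 5.71% of 613 that fell, against 3.55% of 10030 tested genes with a promoter. The E-box was in 12.7% and 10.9% against 11.6%, and the D-box in 0.924% and 1.14% against 0.618%. Over all 32851 promoters, one per start site, the shares were 1.79%, 7.15% and 0.938%. The named rises and falls, the called list members and Klc1 made 74 genes, of which 58 have a promoter there and 13 held a motif. The share of tested genes with any motif was not counted. The response element was in 7, with Cartpt, Mcm5 and Scg2 among them. It was also in Rpl27a, which rose, Tubb2a, whose probe sets moved in opposite directions, Dio2, which rose, and Klc1. Klc1 fell on 1 probe set, and its brightest did not pass. The promoters of Rpl27a, Tubb2a, Dio2 and Klc1 are shown 5′ to 3′ with the element in capitals. It begins at base 154, 192, 156 and 218, counted from 1 at the 5′ end.
Rpl27a (chr7:109518945-109519244, plus strand): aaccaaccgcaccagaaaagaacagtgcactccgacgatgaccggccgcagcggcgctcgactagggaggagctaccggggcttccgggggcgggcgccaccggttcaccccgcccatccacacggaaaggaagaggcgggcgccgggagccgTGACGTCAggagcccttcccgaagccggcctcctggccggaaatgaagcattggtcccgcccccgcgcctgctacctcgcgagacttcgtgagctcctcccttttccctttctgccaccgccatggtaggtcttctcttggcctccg
Tubb2a (chr13:34077959-34078258, minus strand): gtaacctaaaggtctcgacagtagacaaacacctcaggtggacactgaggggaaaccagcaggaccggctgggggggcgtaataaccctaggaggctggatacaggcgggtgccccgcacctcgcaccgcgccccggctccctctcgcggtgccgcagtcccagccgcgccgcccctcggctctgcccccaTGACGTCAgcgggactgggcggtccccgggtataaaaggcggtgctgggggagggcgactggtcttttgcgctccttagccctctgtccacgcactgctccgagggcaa
Dio2 (chr12:90738989-90739288, minus strand): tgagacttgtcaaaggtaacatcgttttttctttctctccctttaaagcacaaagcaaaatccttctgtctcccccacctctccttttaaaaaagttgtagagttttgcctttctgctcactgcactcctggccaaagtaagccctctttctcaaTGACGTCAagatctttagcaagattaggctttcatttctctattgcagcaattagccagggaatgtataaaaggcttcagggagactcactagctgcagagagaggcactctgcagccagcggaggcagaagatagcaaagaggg
Klc1 (chr12:111758618-111758917, plus strand): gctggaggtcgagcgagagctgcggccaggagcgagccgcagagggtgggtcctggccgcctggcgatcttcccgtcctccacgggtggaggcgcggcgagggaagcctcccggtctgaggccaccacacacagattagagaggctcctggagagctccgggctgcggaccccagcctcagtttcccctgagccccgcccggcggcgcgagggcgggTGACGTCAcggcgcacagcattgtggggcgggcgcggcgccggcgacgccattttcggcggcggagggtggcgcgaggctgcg
The letters are a description of these windows and not evidence of a factor bound there.

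Among the 15 genes named for the largest falls, Nedd4, a ubiquitin ligase, had the smallest adjusted p of all probe sets. Its probe set 1421955_a_at read 662, 700.4 and 677 at oil 3 h and 259, 295 and 248 at oil 6 h. The log2 change was -1.35 (standard error 0.12, adjusted p = 1.36e-07 from limma), with a wide gap between the groups. A second Nedd4 probe set fell (-0.83). The brightest did not pass (-0.22, adjusted p = 0.104 from limma), with the 6 h arrays all lower. Tmx4, a thioredoxin-like membrane protein, read 109, 81.7 and 117 and then 36.0, 36.4 and 28.0 (log2 change -1.61, standard error 0.20, adjusted p = 1.59e-05 from limma). Another of its probe sets also fell (-1.17), and the brightest was at -0.25. Eif2s3x, the X-linked γ subunit of initiation factor eIF2, read 114, 136 and 102 at 3 h and 33.0, 58.3 and 43.9 at 6 h (-1.41, adjusted p = 0.000221 from limma). Its 2 brighter probe sets were at -0.13 and -0.21 and did not pass, with the 6 h arrays all lower on both.

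Plxnc1, a semaphorin receptor, read 50.3, 40.9 and 40.8 and then 16.3, 18.2 and 15.3 on the named probe set (-1.40), and a second one fell by 0.83. The brightest did not pass, at -0.12, nor did the next, at -0.42, with the 6 h arrays all lower on both. Dyrk1a, a protein kinase, read 141, 195 and 185 and then 71.3, 84.1 and 56.2 (-1.31), with the other probe sets at 0.08 and -0.00. Neither gene's groups overlapped on the named probe set, which the choice of named genes required. Sesn2, a stress-induced regulator of growth signalling, fell on 1 probe set, from 53.4, 39.95 and 50.1 to 18.9, 18.004 and 20.7 (-1.31, adjusted p = 0.0144 from limma). The other was at -1.48 without passing (adjusted p = 0.0834 from limma). The remaining named falls were Snhg14, a noncoding host transcript of the imprinted Prader-Willi region (-1.61), Taf2, of the general factor TFIID (-1.52), Kitl, the ligand of Kit (-1.38), Ugcg, of glucosylceramide synthesis (-1.34), Gpr26, an orphan receptor (-1.33), Stard7, a lipid transfer protein (-1.33), B230219D22Rik (-1.30), Megf9 (-1.29) and Golm2, a Golgi membrane protein (-1.28). In these 9 genes the brightest probe set was not called. It was at 0.04 for Snhg14, -0.06 for Taf2, -0.81 for Kitl, 0.10 for Ugcg, -0.11 for Gpr26 and -0.04 for Stard7. For B230219D22Rik it was at -0.21, with the 6 h arrays all lower. For Megf9 it was at 0.13, with the 6 h arrays all higher, and for Golm2 at -0.10. Leaving out single arrays ended the call of Snhg14 without oil 6 h replicate 2, of Kitl without 3 h replicates 1 and 3 and 6 h replicates 1 and 3, of Ugcg without 3 h replicate 2 and 6 h replicate 1, of Stard7 without 3 h replicates 1 and 2 and 6 h replicate 1, of Sesn2 without 3 h replicate 1 and of B230219D22Rik without 3 h replicates 2 and 3 and 6 h replicates 1 and 3. The other 9 named falls passed each time.

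**Figure D2:**
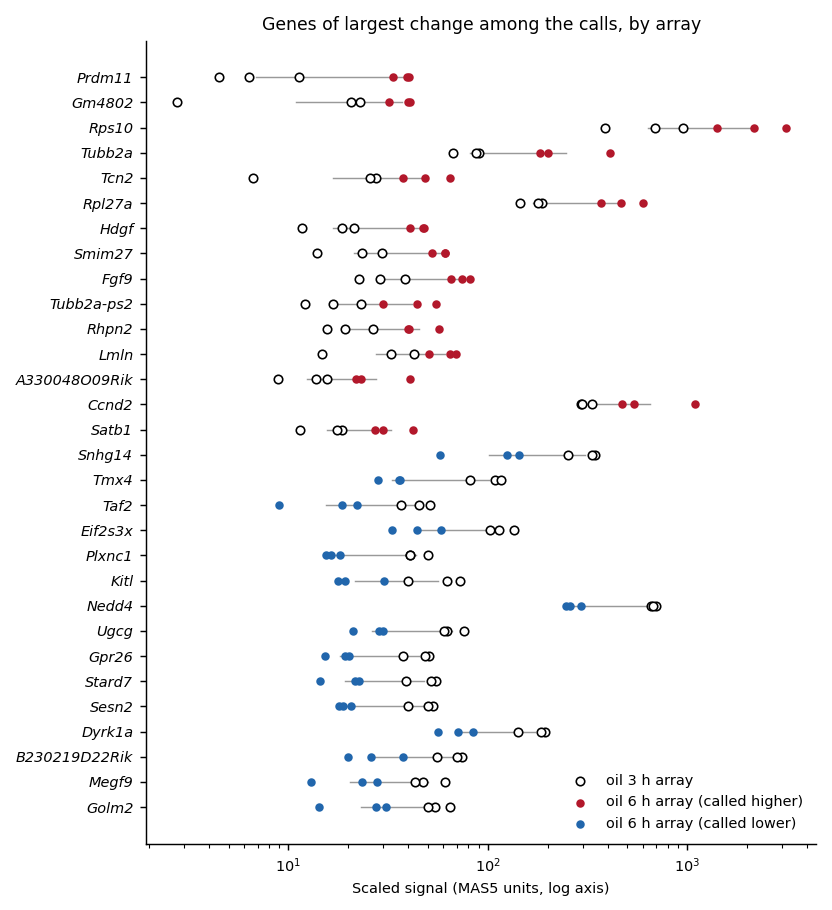
Scaled signal of each oil array (x axis, MAS5 units on a log axis) for the 15 rises and 15 falls of largest size among the calls, with open circles for oil 3 h, filled circles for oil 6 h and a line joining the geometric means. Groups lie apart in every gene by the rule that chose them, and several genes, such as Prdm11 and Gm4802, have oil 3 h signals near the dim end.

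Among the falls with small p-values were probe sets of the noncoding RNAs Xist, Malat1 and Meg3 and of Atrx, which encodes a protein. These genes were looked up after their values were seen. Xist, the RNA that coats the inactive X chromosome, read 942, 900.5 and 877 at 3 h and 351, 417 and 406 at 6 h on 1427263_at (-1.22, standard error 0.12, adjusted p = 7.87e-07 from limma). Its 2 brighter probe sets did not pass, at -0.18 and -0.22, although the groups did not overlap on either. Malat1, an abundant nuclear RNA of splicing speckles, read 8369.8, 8826 and 8794 and then 4910.0, 4724 and 4886 on its brightest probe set (-0.84, adjusted p = 8.78e-06 from limma). In all, 4 of its 7 tested probe sets were called lower and none higher. One not called, 1429060_at, was at 0.53 with the 6 h arrays all higher (adjusted p = 0.229 from limma). Meg3, an imprinted noncoding RNA, fell on 6 of 11, most on 1428765_at, from 2678, 2619.7 and 3016 to 1831, 1558 and 1626 (-0.73). Atrx, a chromatin remodeller of X-linked intellectual disability, fell on 3 of 5. The strongest read 665, 629 and 709.8 and then 258, 303 and 265 (-1.28, adjusted p = 1.33e-06 from limma), but the brightest was at -0.14 and did not pass. Of 23 long noncoding RNA genes read by the brightest probe set, a list also made after values were seen, 2 fell, Malat1 and Mirg (-0.46). The median of that list was -0.03, with 11 genes above 0 and 12 below 0.

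Such splits within a gene were common, and more so among the falls. By the brightest tested probe set of each of 12388 genes, 356 rose (2.87%) and 295 fell (2.38%). Among the 10136 other, dimmer probe sets of those genes, 221 rose (2.18%) and 606 fell (5.98%). In 456 genes a dimmer probe set fell while the brightest was not called. The called ones had a median of -0.61 and the brightest of the same genes a median of -0.06, with 298 of the 456 (65.4%) below 0. For 171 genes with only a dimmer rise the medians were 0.47 and 0.05. Of the neurotransmitter genes in this class, Gad2, which makes GABA, read 292, 263 and 270.4 and then 95.3, 147 and 108 on the dimmer probe set (-1.26, adjusted p = 0.000694 from limma) and -0.40 on the brighter. Syt1, the calcium sensor of synaptic vesicles, had dimmer sets at -1.25 and -1.10 and the brightest at -0.17. Klc1, a kinesin light chain, had -1.23 and -0.29. These genes too were picked after values were seen. Probe sets of 1 gene can read different 3′ ends or unspliced RNA, and which transcripts these probe sets read was not examined. By calls on 3 or more probe sets, 5 genes rose with none called lower. They were Ccnd2 (6 of 6 tested), Cdk4 (3 of 3), Cnn3 (3 of 6), Sin3b (3 of 5) and Zbtb20 (3 of 9). In the same way 20 fell with none called higher, Meg3, Malat1, Atrx, Arf2 and Hsp90aa1 among them. In some genes of both kinds a probe set not called went the other way, down to -0.14 in Cnn3 and up to 0.56 in Gnas. The number of genes with 3 or more tested probe sets was not counted.

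Gene lists were read by the brightest probe set of each gene, against the 2.87% of all genes that rose, the 2.38% that fell and a median change of 0.03. The clock list had 2 of 21 genes higher and none lower, with a median of 0.09. Dbp, a clock-controlled D-box factor, read 43.8, 53.5 and 52.9 at 3 h and 89.8, 75.1 and 101 at 6 h (0.82, standard error 0.17, adjusted p = 0.00382 from limma). Its dimmer probe set was at 0.46 and did not pass. Cry2, a repressor of the clock loop, read 109.7, 105 and 139 and then 174, 169 and 158 (0.51, adjusted p = 0.0224 from limma). Neither gene's groups overlapped, and neither held any of the 3 motifs in its promoter window. Other clock genes did not pass, with Nr1d2 at 0.38, Per3 at 0.36, Clock at -0.19 and Per1 at -0.26. Cry2 lost its call without oil 3 h replicates 1 and 2 and 6 h replicates 1 and 2. Dbp passed without any 1 array, but not without scaling (adjusted p = 0.0629 from limma).

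No gene of the immediate early list, 0 of 33, passed in either direction. Fos read 133, 184 and 139 at 3 h and 119, 104 and 120.1 at 6 h (-0.40, adjusted p = 0.534 from limma), with the groups apart. Its group mean of log2 signal was 8.58 at oil 1 h, above both. Jund was at -0.35, Dusp1 at -0.42 and Nr4a3 at 0.92. Fasting and nutrient genes gave 0 of 27, and innate immune and interferon genes 0 of 15. Of 27 glucocorticoid-responsive genes, 1 rose, Nr3c1, which encodes the glucocorticoid receptor. It read 139, 175 and 133 and then 223, 202 and 219 (0.54, adjusted p = 0.00453 from limma), a second probe set rose by 0.53, with the groups apart on both probe sets. The mineralocorticoid receptor gene Nr3c2 was at 0.68 and did not pass. In the hypoxia list of 21, Ndrg1, a stress-responsive protein of differentiating cells, read 263, 270.4 and 195 and then 359, 385 and 450.0 (0.72, adjusted p = 0.000951 from limma). Vegfa, the growth factor of vessels, went the other way, from 140.0, 154 and 224 to 108, 108 and 89.7 (-0.74, adjusted p = 0.0175 from limma). Vegfa lost the call without oil 3 h replicate 3 and 6 h replicate 3.

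Protein-folding genes had 2 of 26 lower, Pdia4, a disulfide isomerase, at -0.64 and the chaperone Hsp90aa1 at -0.36. Pdia4 read 215, 183 and 203 at 3 h and 117, 137 and 133 at 6 h. Of 3 listed cold-inducible genes, Rtn3 (-0.34) and Srsf5 (-0.42) fell, while the other was above 0 and did not pass. Cholesterol synthesis genes split 1 higher, Mvd (0.57), and 1 lower, Sc5d (-0.58), of 21. In the cell cycle list of 35, Ccnd2 and the replication helicase gene Mcm5 (0.56) rose and none fell. Markers of division itself did not pass, and the list's median was 0.03. Oxidative phosphorylation genes had 2 of 35 higher, Ndufa2 and Ndufa5 of complex I (0.32 and 0.31), and 1 lower, Atp5a1 (-0.21). Myelin and oligodendrocyte genes gave 0 of 14. Of 39 splicing genes, Rbfox2, a neuronal splicing factor, and Hnrnpa1 rose (0.60 and 0.22). Malat1, Srsf2 (-0.65), Srsf5 and Hnrnph1 (-0.26) fell. Srsf2 read 2319, 2284 and 2491 and then 1627, 1465 and 1438. Without single oil arrays the call was lost for Hsp90aa1 (3 h replicate 3 and 6 h replicates 1 and 2), Srsf5 (each of the 6), Mvd (3 h replicates 2 and 3 and 6 h replicates 1, 2 and 3), Sc5d (3 h replicate 1 and 6 h replicates 1 and 3), Mcm5 (3 h replicates 1 and 2 and 6 h replicates 2 and 3), Ndufa2 (3 h replicates 1 and 2 and 6 h replicates 1, 2 and 3), Atp5a1 (3 h replicates 1 and 3 and 6 h replicates 1, 2 and 3), Hnrnpa1 (3 h replicates 1 and 2 and 6 h replicates 1 and 2), Hnrnph1 (3 h replicate 3 and 6 h replicates 2 and 3), Rbfox2 (3 h replicates 1 and 2 and 6 h replicates 1 and 2) and the brightest Ccnd2 probe set (6 h replicate 2).

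Among 27 hypothalamic neuropeptide genes, 1 rose and 1 fell. Cartpt, an arcuate peptide that lowers feeding, read 72.9, 74.5 and 61.8 and then 101, 99.3 and 114 (0.59, adjusted p = 0.0381 from limma), without overlap. Scg2, a granin of secretory vesicles, was at -0.31. Pomc, the precursor of melanocortins, was at 0.29 on its brightest probe set and did not pass, while the other rose by 0.96, a probe set singled out after its values were seen. Peptide genes of large but variable change did not pass, with Crh at -1.14, Hcrt at -0.83, Npy at 0.62 and Cck at 0.75. Of 13 steroid receptor and estrogen-responsive genes, 1 rose, Ncoa1, a coactivator of nuclear receptors, from 281, 275 and 258 to 378, 484 and 342 (0.55, adjusted p = 0.00108 from limma). Of 34 hypothalamic transcription factor genes, Otp, of neuroendocrine neurons, fell from 1013, 1207 and 1168 to 988, 732 and 860.0 (-0.40, adjusted p = 0.046 from limma). Cartpt lost its call without any 1 of the 6 oil arrays, Scg2 without 3 h replicates 1, 2 and 3 and 6 h replicate 2, and Otp without 3 h replicates 2 and 3 and 6 h replicates 2 and 3. Otp also lost it with the replicate block.

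**Figure D3:**
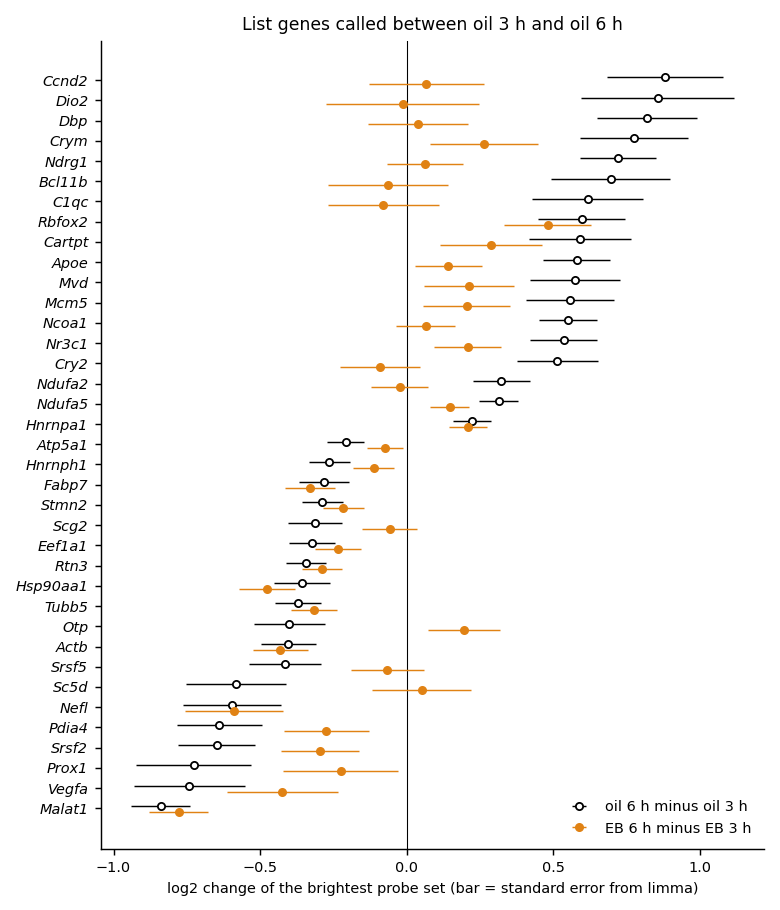
Log2 change of the brightest probe set (x axis, bars are standard errors from limma) for the list and marker genes called between oil 3 h and oil 6 h, with open circles for oil mice and orange circles for the same step in EB mice. The changes in oil run from Malat1 at -0.84 to Ccnd2 at 0.88, and in EB mice Ccnd2 was at 0.07 and Malat1 at -0.78.

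Of the cell type markers, the tanycyte list had 2 of 7 tested genes higher, with a median of 0.37. Dio2, which activates thyroid hormone, read 34.8, 37.8 and 28.8 at 3 h and 47.7, 90.1 and 52.3 at 6 h (0.86, standard error 0.26, adjusted p = 0.0449 from limma). Crym, which binds thyroid hormone in the cell, read 89.7, 113 and 77.8 and then 139, 161 and 178 (0.78, standard error 0.18, adjusted p = 0.0105 from limma). Neither overlapped. The summed signal of the 9 listed tanycyte markers lay from 1066 to 1168 at 3 h and from 1219 to 1379 at 6 h, but Rax, a defining marker, was below the filter on dim probe sets and Gpr50 was at -0.14. Apoe, the lipid carrier of astrocytes, rose from 1880.3, 1794 and 1408 to 2347, 2537 and 2665 (0.58, adjusted p = 0.00237 from limma). Fabp7, of radial glia, fell by 0.28 (-0.04 and not called after quantile normalization), and the 18 astrocyte and radial glia genes had a median of 0.03. Of 15 microglial genes, 1 rose, C1qc (0.62). Dio2 lost its call without oil 3 h replicates 1, 2 and 3 and 6 h replicates 2 and 3, Crym without 3 h replicate 3 and 6 h replicate 3, Fabp7 without 3 h replicates 1 and 3 and 6 h replicates 1, 2 and 3, and C1qc without 3 h replicates 2 and 3 and 6 h replicates 1, 2 and 3.

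Pan-neuronal genes had 3 of 16 lower and none higher, with a median of -0.18 and 13 of 16 below 0. They were the neurofilament gene Nefl (-0.60), the tubulin-binding Stmn2 (-0.29) and Scg2. Reference genes had 3 of 12 lower: Actb (-0.40), Tubb5 (-0.37) and Eef1a1 (-0.32). Actb read 12228, 9946 and 10439.9 at 3 h and 8244, 8481 and 7842 at 6 h. These are among the brightest signals of the array, and whether they passed depended on the scaling. After quantile normalization, which makes the distributions of the arrays equal, Eef1a1 was at 0.04, Actb at -0.05, Stmn2 at -0.03 and Tubb5 at -0.10, and none passed. The signal of the 99th percentile over the median was 82.3 ± 3.77 at oil 3 h and 76.4 ± 2.58 at oil 6 h (SD, n = 3; exact permutation test, two-sided, p = 0.1). Without single oil arrays the calls were lost for Nefl (3 h replicates 1 and 3 and 6 h replicates 1 and 3), Stmn2 (3 h replicate 1 and 6 h replicate 2), Actb (3 h replicate 1) and Eef1a1 (3 h replicate 1 and 6 h replicates 2 and 3).

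Markers of regions next to the hypothalamus varied among the arrays, also within the groups. The thalamus list had 1 of 10 lower and a median of -0.53. Prox1, which passed, read 131, 135 and 138 and then 103, 61.4 and 85.7 (-0.73), while Tcf7l2 read 519, 161 and 654 and then 175, 131 and 177 (-1.25, adjusted p = 0.22 from limma). The summed thalamic signal lay from 3382 to 4627 at 3 h and from 2580 to 3872 at 6 h, so the groups overlapped. The cortical list had 1 of 9 higher, Bcl11b (0.70), and oil 6 h replicate 2 stood apart, with a summed signal of 3563 against 1341 to 1786 on the other 5 arrays. Neurod6 read 78.3, 55.9 and 94.1 at 3 h and 112, 899 and 102 at 6 h, and Bcl11b lost its call without oil 3 h replicates 1, 2 and 3 and 6 h replicate 2. Without oil 6 h replicate 2, limma called 455 higher and 596 lower probe sets. Endothelial, mural, meningeal, ependymal, striatal, erythroid and muscle lists had no called gene. The same array was also highest in the summed endothelial signal (6276 against 4167 to 4940 on the other 5), the striatal (4170.1 against 3174 to 3755), the microglial (2384 against 1552 to 2061) and the mural (2769 against 1922 to 2398). Meningeal sums lay from 10745 to 17002 at 3 h and from 10967 to 18537 at 6 h. The part of neighbouring tissue in the results was not tested.

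The same step was measured in 6 other mice that received EB at birth, which share no array with the oil comparison. Both steps were tested in 1 fit of the 30 arrays and share its estimate of each probe set's spread. The calls of the 2 steps are therefore not fully independent. There limma called 103 probe sets higher (0.381%) and 342 lower (1.27%) from 3 h to 6 h. Of the 709 that rose in oil, 45 also rose in EB (6.35% of the oil calls, 43.7% of the EB calls). Of the 1042 that fell in oil, 208 also fell in EB (20.0% and 60.8%), and no probe set was called in opposite directions. The sign was shared by 576 of 709 (81.2%) and 925 of 1042 (88.8%), where 47.7% and 52.3% of all tested probe sets had that sign in EB. The EB 6 h arrays lay all on the same side of the EB 3 h arrays in 30.2% of the rises and 44.4% of the falls, against 6.85% and 8.59% of all tested. The median change of those probe sets in EB was 0.15 and -0.25. The 18S control rose in EB as well, from 818 to 2010 on the 3′ probe set, so it moved with the step in both treatments. On unscaled signals EB gave 1150 higher and 18 lower, and after quantile normalization 162 and 213. The EB counts also moved by over 1.5 times without EB 3 h replicate 1 (180 lower), EB 3 h replicate 3 (53 and 106), EB 6 h replicate 1 (31 and 92), EB 6 h replicate 2 (51 and 217) and EB 6 h replicate 3 (62 higher).

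Rpl27a rose in EB by 1.29 and Tubb2a by 1.34 (adjusted p = 6.46e-06 and 0.000413 from limma). Nedd4 (-0.88), Xist (-0.86), Atrx (-0.94) and Malat1 (-0.78) fell in EB too. Other members had EB values near 0, with Klc1 at 0.05, the Arf2 probe set 1416459_at at -0.06 against -0.83 in oil, the named Ccnd2 probe set at 0.14, Dbp at 0.04, Cry2 at -0.09 and Dio2 at -0.01. The difference of the step between EB and oil was tested directly and 0 probe sets passed (0%, limma), with a smallest adjusted p of 0.157. Leaving out EB 3 h replicate 1 let 2 pass, leaving out EB 6 h replicate 1 let 5 pass, and leaving out its replicate 3 let 1 pass. At an unadjusted p under 0.05 there were 2319 probe sets (8.58%), and the methods' linear model, adjusted over all probe sets, also gave 0. For Klc1 the adjusted p of the difference was 0.157, for Ccnd2 0.35, for Dbp 0.35 and for Cry2 0.366.

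**Figure D4:**
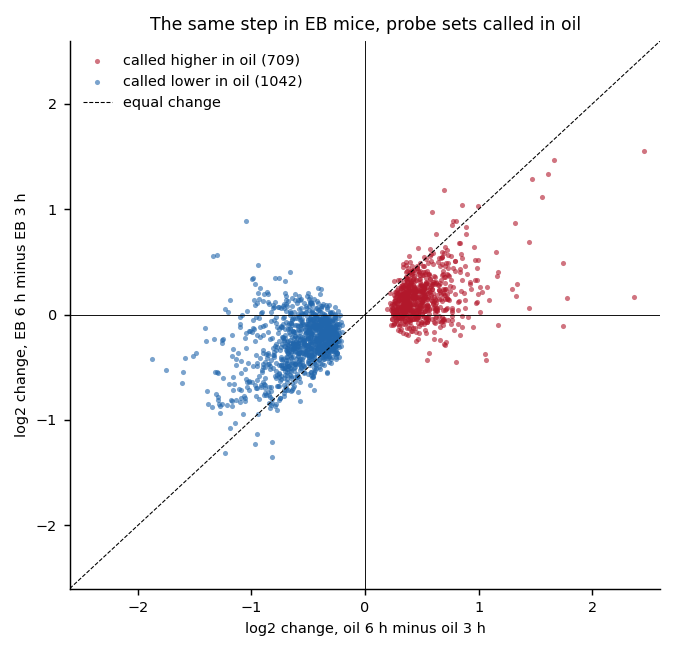
Log2 change from 3 h to 6 h in EB mice (y axis) against that in oil mice (x axis) for the 1751 probe sets called in oil, with rises in red, falls in blue and a dashed line of equal change. Of the rises 81.2% and of the falls 88.8% have the same sign in EB, and 1602 of the 1751 lie closer to 0 in EB than in oil, where they were chosen for their change.

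The levels at the other times were read on arrays that did not enter the oil 6 h against 3 h contrast. Each probe set was centred on the midpoint of its oil 3 h and 6 h means. The side of the oil 3 h and 6 h medians was therefore set by the choice of the probe sets. The 1042 that fell had medians of 0.28 at 1 h, 0.25 at 3 h, -0.25 at oil 6 h, then -0.31 at 12 h and 0.15 at 24 h. At oil 1 h 96.1% of them were above the midpoint, at oil 12 h 82.1% were below it, and at oil 24 h 82.0% were above it again. The shares over all tested probe sets at these times were not counted. In EB mice the medians were 0.20, 0.13, -0.13, -0.24 and -0.02. The 709 that rose had medians of -0.16, -0.23, 0.23 and 0.24 from 1 h to 12 h in oil mice and a median within 0.01 of the midpoint at 24 h, where 49.2% were above it. In EB mice they were at -0.09, -0.02, 0.13, 0.22 and 0.18. In oil mice most of both sets were thus on the 6 h side of the midpoint at 12 h (87.2% of the rises). At 24 h most of the falls were on the side of 1 h and 3 h.

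Single genes followed this order in part. The group means of log2 signal of Nr3c1 were 7.26 at oil 1 h, 7.82 at 12 h and 7.63 at 24 h, and those of Apoe 10.5, 11.3 and 11.1, so both stayed above their 1 h level. Dbp was at 6.04, 6.35 and 6.33, while Dio2 was at 5.35, 4.99 and 5.31, no higher at the later times than at 1 h. The mean 18S control signal was 777, 904, 1614, 877 and 1000.2 at oil 1, 3, 6, 12 and 24 h, and 903, 729, 1461, 802 and 2043 in EB. On the 3′ probe set alone it was 700.3, 857, 2146, 1193 and 1128 at those times in oil, and its part in the levels was not tested. The unscaled array medians were highest at 12 h, from 61.5 to 66.9 in oil.

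**Figure D5:**
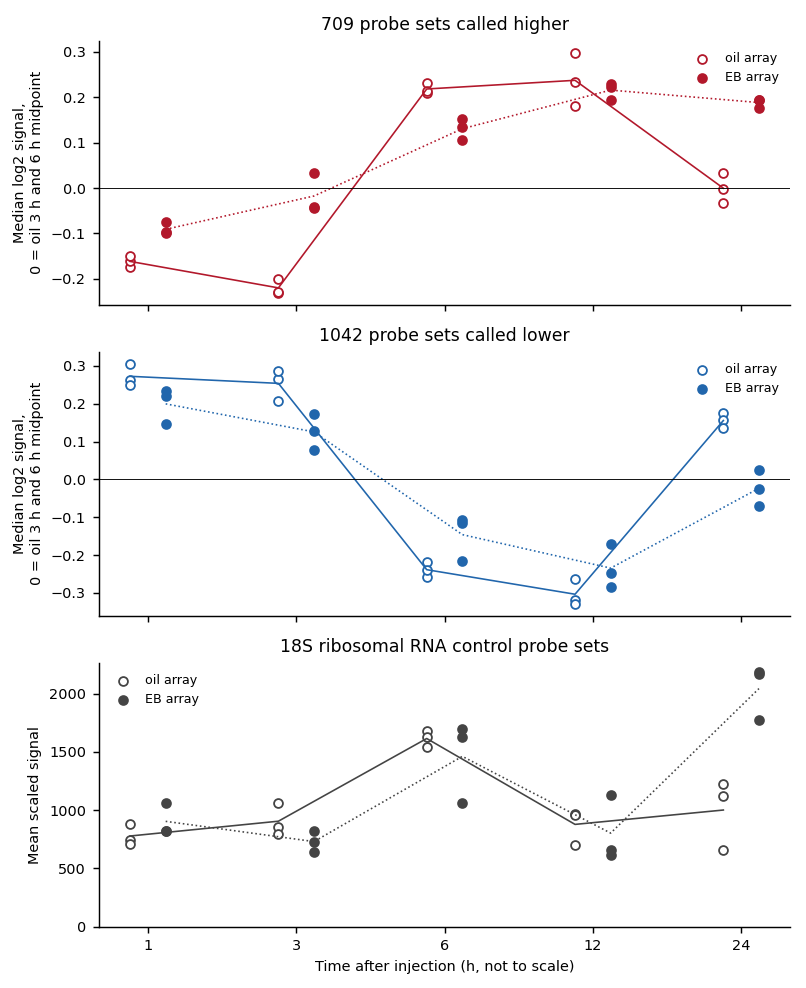
Median level per array of the 709 probe sets that rose and the 1042 that fell (upper and middle panels, y axis in log2 units from the oil 3 h and 6 h midpoint), and mean scaled 18S control signal (lower panel), against time after injection (x axis, h, not to scale). Open circles are oil arrays, filled circles EB arrays, and lines join group means. The oil levels of 6 h hold at 12 h and return toward the midpoint or past it at 24 h, and 18S in oil is highest at 6 h.

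By the ratio of mean scaled signals alone, with no test, 55 probe sets were at 2-fold or more and 102 at 0.5-fold or less between oil 3 h and oil 6 h. Of these, 29 and 80 were also called by limma. The number at 2-fold or more was 88, 85, 88 and 90 without oil 3 h replicate 1, 2 or 3 or oil 6 h replicate 1.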

How the data were processed

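RNA of the whole hypothalamus was read on 30 Affymetrix GeneChip Mouse Genome 430 2.0 arrays. The authors deposited signal intensity values on a linear scale, and the submitters' processing notes name MAS5, with no version or scaling given in the sources used here. Of 45101 probe sets 64 controls were set aside. Of the rest, 34945 carried 1 gene symbol in the platform's annotation, 932 several and 9160 none, and only those with 1 were named. Array columns that matched no sample numbered 0.

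Scaling brought every array's median to their common mean, signals under 1 were set to 1, and log2 was taken. The dimmest 40% of probe sets (mean over all arrays) were dropped, leaving 27023 for testing (12388 genes, lowest mean signal 21.9). A limma 3.58.1 model in R 4.3.3 (lmFit, contrasts, eBayes with a trend) covered the 10 groups of the 30 arrays, with Benjamini-Hochberg adjustment over all probe sets tested and a threshold of 0.05. The samples are labelled as biological replicates. The script was tested on simulated data with 200 changed probe sets. Named genes were up to 15 per direction by size of change among non-overlapping calls, with the members of each list that passed and up to 4 of largest change. The members and gene lists were chosen with earlier results of these data known. Alternatives covered scaling, low signals, filters, arrays in the fit, array weights, the replicate number, the trend, the methods' treatment and time linear model on the deposited signals and leaving out arrays. Leaving out arrays for the EB step and for the difference, and the linear model of both, were chosen after seeing the data. Promoters came from RefSeq (GRCm38.p6).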

Additional observations from a re-analysis of the deposited data

How the results depend on the processing

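In oil, limma called 44 higher and 120 lower without scaling, 164 and 492 in a fit of only the 6 arrays, and 384 to 508 and 557 to 839 when each oil array was left out. The methods' linear model, adjusted over all probe sets, gave 3 and 47. Quantile normalization, the floor or offset of 16, no filter, the stricter filter, the 15 oil arrays, array weights and no trend kept both counts within 1.5 times, from 509 to 835 higher and 757 to 1208 lower. In EB the counts were 162 and 213 after quantile normalization, 1150 and 18 without scaling, 64 and 184 without the filter, 26 and 1 by the methods' model, and 31 to 107 and 92 to 488 with arrays left out. For the difference between EB and oil, 4 passed after quantile normalization and 0 to 5 with arrays left out. Without the filter, 1863 probe sets were at 2-fold or more and 2388 at 0.5-fold or less, and with oil arrays left out 45 to 90 and 101 to 149. Eef1a1 turned to 0.040 after quantile normalization. The cause of these shifts was not tested.

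Replicate numbers are shared by the groups. The deviations of same-numbered arrays correlated at 0.0013, -0.0047 and 0.041 over probe sets, and those of unlike number at -0.089 to 0.073. Whether same-numbered arrays share a litter or a batch is not stated and was not tested. With the number as a replicate block, limma called 730 higher and 1075 lower, 1684 of them shared with the fit without it, 111 and 377 in EB and 3 for the difference, and of 67 gene calls examined 1 was lost, that of Otp. Of the same 67, 42 were lost without scaling, 30 in the fit of 6 arrays, 19 without the filter, 16 without the trend, 8 with array weights and, of 66, 8 after quantile normalization, where Hsp90aa1 was at -0.16, Fabp7 at -0.04, Scg2 at -0.22, Atp5a1 at -0.12, C1qc at 0.60, Actb at -0.05, Stmn2 at -0.03 and Tubb5 at -0.10. Dim probe sets limit what could be seen, since 40% were left out, and changes of genes near the filter rest on low signals.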

Other observations

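Tubulin and ribosomal protein genes were listed after their values were seen, so they are given as a description. By the brightest probe set, 4 of 12 tubulin genes fell from oil 3 h to oil 6 h and none rose: Tubb4a by -0.49, Tuba1a by -0.44, Tubb5 by -0.37 and Tubb2a by -0.23 on the log2 scale (adjusted p = 0.0275, 0.00549, 0.0045 and 0.0494 from limma). The dimmer Tubb2a probe set rose by 1.61. After quantile normalization Tubb5 was at -0.10 and did not pass. The falls of Tubb4a, Tuba1a and the brightest Tubb2a probe set were not examined under other settings. In EB mice Tuba1a was at -0.43, and Tubb4a, which forms axonal microtubules, at 0.08. Of 46 cytosolic ribosomal protein genes, Rpl27a rose and Rpl41 (-0.36), Rpl37a (-0.32), Rps29 (-0.27) and Rps24 (-0.25) fell, with 37 of 46 below 0 and a median of -0.10. Rpl41 and Rps29 had mean log2 signals of 13.02 and 13.47, and the 18S control was higher at 6 h, whose part in these values was not tested. Whether the ribosomal protein falls pass after quantile normalization was not examined.

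Further genes with small p-values, chosen after their values were seen, covered several roles. Copb2, of the coat of Golgi vesicles, rose from 529.6, 527 and 592 to 852, 873 and 873 (log2 change 0.66, standard error 0.07, adjusted p = 7.87e-07 from limma), with a narrow spread in both groups. The mitochondrially encoded complex I gene ND5 fell by 0.67, Mycbp2, a ubiquitin ligase of axons, by 0.84, and Ttc3, another ubiquitin ligase, by 0.95. App, the amyloid precursor, fell by 0.52. All 5 also passed in EB mice, where Copb2 was at 0.46, ND5 at -0.37, Mycbp2 at -0.84, Ttc3 at -0.49 and App at -0.35. Smarcc1, of the SWI/SNF chromatin complex, fell by 1.05 in oil and was at -0.22 in EB (adjusted p = 0.44 from limma), and Rac1, a GTPase of the actin cytoskeleton, fell by 0.66 on its brighter probe set and was at -0.14. Neither difference between EB and oil passed (adjusted p = 0.161 and 0.178 from limma).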
